A study of Mus musculus with 2 samples.

Results

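Cluster 2 is 1 of 11 cell clusters that the authors drew from 2 tumors grown in mice from injected dysplastic stem cells. Its members here are the 1661 genes that the authors' deposited table lists for it, of the 18319 genes that the table names anywhere. The cluster was taken by its number, and red cell genes, the heme enzyme Alas2 and the globins Hbb-bs and Hba-a1, had been named as its markers. Of 10 red cell markers that the table names, 5 were raised in cluster 2: Alas2 and the 4 adult globin genes. That is 50%, beside 2.89% of all named genes. The genes of smallest p were led by the translation elongation factor Eef1a1 and the actin Actg1. Band 3 and the erythropoietin receptor were not listed. None of 17 named red cell transcription factors was raised, which is near the 2.89% of all named genes. The cluster keeps its number and has no cell type name.

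The study profiled single cells with the inDrop platform, which captures each cell in a droplet with a barcoded bead. The cystic adenocarcinoma, removed at 10 weeks after DP-DSC cells were injected, gave 1 library, and the tubular adenocarcinoma, removed at 13 weeks, gave the other. Both hosts were female NuJ mice, and neither their ages nor the number of animals per library was stated in the sources used here. NuJ mice are nude mice, which lack a thymus and so most mature T cells, but they make red cells and myeloid cells. The table has no column for either tumor, so cystic and tubular cells could not be compared, and no value has an error across animals. How many cells the cluster holds was not stated either, and the depth behind each fold is unknown.

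Red cells carry hemoglobin, a tetramer of alpha and beta globin chains with a heme group in each chain. Heme is made in the mitochondrion and cytosol by a chain of enzymes whose red cell form of the entry step is Alas2, and globin and Alas2 transcripts build up late in red cell development, under transcription factors such as Gata1 and Klf1. Maturing red cells then lose their nucleus and mitochondria and keep a stock of these transcripts for a time.

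A gene is called listed where the table gives it for a cluster, which needs a linear fold above 1.5, and raised where its fold reaches 2 and its deposited p is 0.05 or less. The table does not say which cells the folds are relative to. Since the cells were grouped by their expression, a cluster's folds describe it and test nothing, and genes that were lower in the cluster are not seen. In cluster 2, 529 of the 18319 named genes were raised, or 2.89%, and 1661 were listed, or 9.07%. In clusters 1 and 3 to 11 the raised genes made up, in that order, 1.82%, 4%, 18.6%, 4.32%, 20.3%, 3.42%, 6.36%, 26.6%, 4.90% and 17.0% of the named genes. The listed genes made up 6.34%, 29.9%, 31.5%, 20.6%, 36.4%, 12.1%, 26.4%, 38.9%, 18.9% and 25.7% in the same order, so cluster 2 was among the shorter lists. Of the genes listed in cluster 2, 718 had a p of at most 0.05, which is 43.2%. The median fold of the 1661 listed genes in the authors' deposited table was 3.72, and the range ran from 1.501 to 569.0.

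The 4 globin genes lie in 2 loci. Hbb-bs and Hbb-bt, the beta chains, lie side by side on chromosome 7 of GRCm38 (mm10), at chr7:103826534-103828096 and chr7:103812524-103813996 on the minus strand. Hba-a1 and Hba-a2, the alpha chains, lie on chromosome 11 at chr11:32283511-32284465 and chr11:32296489-32297298 on the plus strand. Alas2 lies on the X chromosome at chrX:150547375-150570638 on the plus strand. All 5 are protein-coding genes of GENCODE M21. Their promoters are shown because these genes carry the red cell signal of the cluster and were raised together. Each line holds the 220 bases before the RefSeq start site in GRCm38.p6, 5′ to 3′ on the gene's own strand, from the C57BL/6J reference and not from the host strain. Capitals mark matches on either strand to TATAA (the core of the TATA box), to CCAAT (the CCAAT box), to CCACCC (a form that Klf1 binds) and to GATAA (a form that Gata1 binds). Matches to different motifs did not overlap.
Alas2 (chrX:150547197-150547416, plus strand): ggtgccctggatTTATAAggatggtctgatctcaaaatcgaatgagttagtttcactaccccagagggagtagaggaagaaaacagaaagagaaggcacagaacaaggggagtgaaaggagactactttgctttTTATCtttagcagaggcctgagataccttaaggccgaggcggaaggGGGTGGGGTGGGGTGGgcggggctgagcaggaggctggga
Hbb-bs (chr7:103827929-103828148, minus strand): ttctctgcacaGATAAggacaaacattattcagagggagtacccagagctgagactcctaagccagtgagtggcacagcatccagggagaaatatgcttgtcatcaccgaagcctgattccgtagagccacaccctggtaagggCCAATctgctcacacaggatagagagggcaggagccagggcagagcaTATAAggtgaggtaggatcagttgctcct
Hbb-bt (chr7:103813924-103814143, minus strand): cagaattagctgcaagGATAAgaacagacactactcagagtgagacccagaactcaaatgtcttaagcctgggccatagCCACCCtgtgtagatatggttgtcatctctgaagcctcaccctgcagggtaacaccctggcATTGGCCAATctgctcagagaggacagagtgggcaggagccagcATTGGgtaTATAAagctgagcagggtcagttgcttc
Hba-a1 (chr11:32283452-32283671, plus strand): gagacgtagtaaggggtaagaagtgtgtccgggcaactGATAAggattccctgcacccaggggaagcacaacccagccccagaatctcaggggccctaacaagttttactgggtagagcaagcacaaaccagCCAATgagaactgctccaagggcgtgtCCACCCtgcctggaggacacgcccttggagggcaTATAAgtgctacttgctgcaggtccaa

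The promoter window of Hba-a2 differs from that of Hba-a1 by a shift of the start site, and all 217 aligned bases are identical. In each of the 4 globin windows TATAA began between 27 and 30 bases before the start site. On the gene's strand, CCAAT began at 76 bases before the start in Hbb-bs, 75 in Hbb-bt, 88 in Hba-a1 and 91 in Hba-a2. Hbb-bt also holds CCAAT on the opposite strand, beginning 80 and 36 bases before the start. The Alas2 window has no CCAAT, holds TATAA far upstream at 207 bases before the start on the gene's strand and 208 on the opposite strand, and holds CCACCC 3 times on the opposite strand between 40 and 25 bases before the start. On the gene's strand, CCACCC began at 141 bases before the start in Hbb-bt, 61 in Hba-a1 and 64 in Hba-a2. The Hbb-bs window had no exact CCACCC match. GATAA was found in all 5 windows, at 86 bases before the start on the opposite strand in Alas2 and between 182 and 209 on the gene's strand in the globin genes.

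Such short matches are frequent. Of 32851 RefSeq promoter windows of this length, 20.1% hold TATAA on either strand, 31.1% hold CCAAT, 25.9% hold CCACCC and 19.97% hold GATAA. Those with TATAA as well as CCAAT as well as GATAA, as in 4 of the 5 windows here, make up 2.10%. Among the 497 windows of genes raised in cluster 2, which cover 392 of the 529 genes, the shares were 11.7%, 35.6%, 33.4% and 14.5% in the same order, and 1.41% for the combination. Among the 15731 windows of genes named in the table they were 12.3%, 32.2%, 30.1% and 13.9%, and 0.947% for the combination. Of the 497 windows 7 held the combination, and 4 of these 7 were the globin windows in which it was first seen. The 1.41% is therefore no independent sign. A match is a description of the sequence and does not show a bound site. Exact strings alone were sought, so a window without a match may still hold a variant of the motif. GENCODE places the start of Alas2 42 bases, of Hbb-bs 168, of Hbb-bt 73, of Hba-a1 161 and of Hba-a2 3 bases upstream of the RefSeq start.

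All 4 adult globins had folds within a narrow range. In cluster 2 of the authors' deposited table Hbb-bs had a fold of 10.01, Hba-a1 9.20, Hba-a2 8.75 and Hbb-bt 7.34. The alpha and beta folds overlap, with Hbb-bs above and Hbb-bt below both alpha genes. In cluster 1 of the authors' deposited table the folds of Hbb-bs, Hba-a1, Hba-a2 and Hbb-bt were 1.995, 2.16, 2.37 and 2.55, and none was raised there. No other cluster listed any of the 4 genes. Of 16 globin names and partners sought, 5 are in the table, and the fifth, cytoglobin (Cygb), was not listed in cluster 2. The embryonic globins and Ahsp, the chaperone of free alpha globin in red cells, are not named in the table.

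The paired globin copies cannot be taken as independent genes. The coding sequences of Hba-a1 and Hba-a2 differ at 1 of 429 bases, and after the stop codon all 74 aligned bases are the same. Those of Hbb-bs and Hbb-bt differ at 1 of 444 bases, and after the stop codon 72.1% of the aligned bases are the same. How the authors' counting treated reads that fit both copies is not stated, so the fold of each single copy is uncertain.

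Heme genes gave 3 raised members, Alas2 among them. Alas2, which joins glycine and succinyl-CoA at the entry of heme synthesis, reached 11.8 in cluster 2 of the authors' deposited table and came 75th by p. It was also listed in cluster 1 of the authors' deposited table, at 1.60 and not raised, and in no other cluster. Of 24 genes of heme synthesis and transport, all of them named in the table, 3 were listed and all 3 raised in cluster 2. That is 12.5%, beside 2.89% of all named genes, with a median fold of 9.50 in the authors' deposited table. Alas2 had been named as a marker, so this share is no independent sign. The second of the 3 was biliverdin reductase B (Blvrb), which acts in heme breakdown and is abundant in red cells. Blvrb had 9.50 in cluster 2 and 1.90 in cluster 4 of the authors' deposited table. By p it came 683rd of the 718 genes of cluster 2 with a p of at most 0.05, near that cut. Slc25a39, a mitochondrial carrier linked to glutathione import and heme synthesis, was the third, with 2.01 in cluster 2 and 5.68 in cluster 11 of the authors' deposited table.

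Of the enzymes that act after Alas2, Alad, Uros, Urod, Cpox, Ppox and Fech were not listed in cluster 2. Of 19 genes of iron uptake, storage and export, 1 was listed and 0 raised, beside 9.07% and 2.89% of all named genes. The listed gene was Slc25a37, the mitochondrial iron importer of red cells. Slc25a37 had 1.56 in cluster 2 and 1.69 in cluster 4 of the authors' deposited table. The transferrin receptor Tfrc, which brings iron into developing red cells, was not listed.

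**Figure D1:**
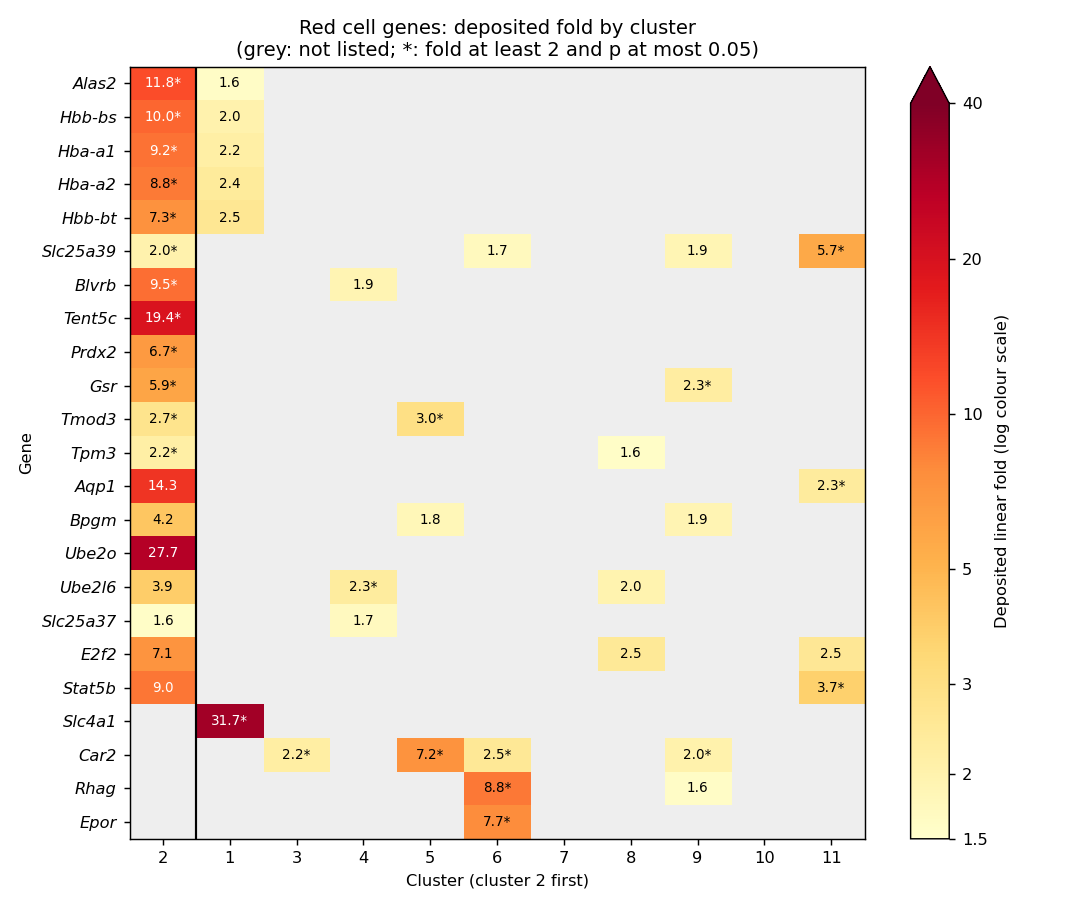
Deposited linear fold of red cell genes (rows) in cluster 2 and the other 10 clusters (columns), with colour on a log scale, grey where a gene is not listed, and an asterisk where it is raised. Alas2 and the 4 globins are coloured in clusters 2 and 1 alone, while Slc4a1, Car2, Rhag and Epor are grey in cluster 2.

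Proteins of the red cell membrane and its skeleton gave 2 raised members of 26 named (7.69%, beside 2.89% of all named genes). They were Tmod3, a cap of actin filament ends, with 2.74, and Tpm3, a tropomyosin, with 2.16 in cluster 2 of the authors' deposited table, and both are also used by many other cells. The water channel Aqp1 had 14.3 and the surface protein Cd47 1.91 in cluster 2 of the authors' deposited table, neither of them raised. The anion exchanger Slc4a1 (band 3) was not listed in cluster 2 and had 31.7 in cluster 1 of the authors' deposited table, where it was raised. The Rh-associated glycoprotein Rhag was listed in clusters 6 and 9, with 8.83 and 1.59 in the authors' deposited table.

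Regulators of red cell formation gave no raised gene. In cluster 2, 9.07% of all named genes were listed and 2.89% raised. At those shares, lists of 17 and 19 genes hold few or no raised members. Of 17 transcription factors named, 1 was listed in cluster 2: E2f2, which takes part in the last cell divisions of red cell precursors, had 7.11 in the authors' deposited table and was not raised. Gata1, Klf1, Gfi1b and Myb are not named in the table. Of 19 genes of erythropoietin and Kit signalling, 1 was listed: Stat5b, a mediator of the erythropoietin receptor, had 9.02 in cluster 2 of the authors' deposited table and was not raised. The receptor itself, Epor, was listed in cluster 6 alone, with 7.65 in the authors' deposited table, and was raised there.

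Late maturation and red cell enzymes gave 3 raised genes. Tent5c, a poly(A) polymerase that lengthens the tails of selected transcripts, had 19.4 in cluster 2 of the authors' deposited table and was listed in no other cluster. It was the raised member of largest fold among all red cell lists. Of 26 named genes of maturation, mitophagy and enucleation, it was the 1 raised (3.85%), near the 2.89% of all named genes. Ube2o, a ubiquitin ligase that clears ribosomes from maturing red cells, had 27.7, and Ube2l6 had 3.87 in cluster 2 of the authors' deposited table, neither of them raised. Of 29 named red cell enzymes and antioxidants, 5 were listed and 2 raised (6.90%, beside 2.89% of all named genes). Peroxiredoxin 2 (Prdx2), a peroxide scavenger abundant in red cells, had 6.68 in the authors' deposited table and was listed in no other cluster. Glutathione reductase (Gsr) had 5.92 in cluster 2 and 2.26 in cluster 9 of the authors' deposited table. The mutase Bpgm, which makes the 2,3-bisphosphoglycerate of red cells, had 4.16 in cluster 2 of the authors' deposited table and was not raised, and Car2, the carbonic anhydrase, was not listed there. Car2 was raised in clusters 3, 5, 6 and 9, at 2.20, 7.19, 2.49 and 2.03 in the authors' deposited table.

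Over the 8 lists of red cell functions together, 22 of 165 named genes were listed in cluster 2 and 12 were raised, or 7.27%, beside 2.89% of all named genes. The lists were fixed with earlier results of these data known, and the globins and Alas2 had been named as markers, so this count is no independent sign of red cells. In cluster 4, where 18.6% of all named genes were raised, 50 of the 165 were raised, or 30.3%, and in cluster 9, where 26.6% were raised, 38 were, or 23.0%.

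The place of the red cell genes in the cluster depends on the ranking. By p, the antioxidant Prdx1 (1.51 in the authors' deposited table) came 17th, Tpm3 23rd and Cd47 64th, and of these Tpm3 alone was raised. Alas2 came 75th, Hbb-bt 122nd, Hba-a1 192nd, Tent5c 207th, Hba-a2 215th, Prdx2 218th and Hbb-bs 231st of 1661. By fold among the 529 raised genes, Tent5c came 29th, Alas2 53rd, Hbb-bs 67th, Hba-a1 79th, Hba-a2 89th and Hbb-bt 113th. These ranks are over all genes. With ribosomal, mitochondrially encoded and predicted genes left out, Tent5c came 18th by fold among the raised genes. In that ranking Prdx1 and Tpm3 were among the first 25 genes by p, and Tent5c among the 25 of largest fold. Alas2 and the globins were in neither set.

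**Figure D2:**
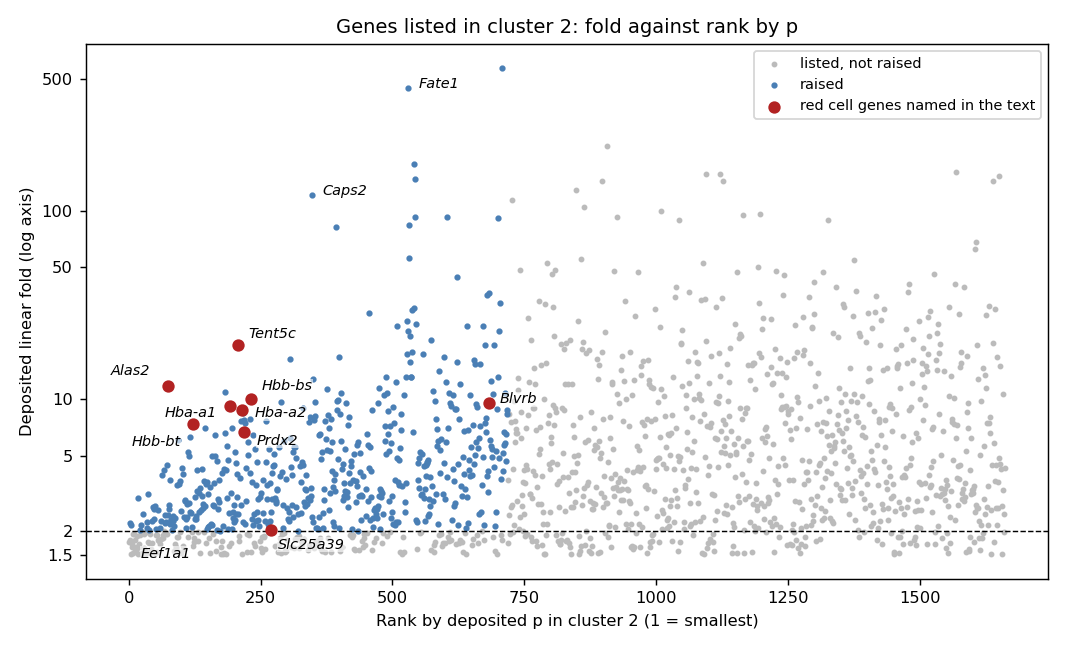
Deposited linear fold (log axis) against rank by deposited p for the 1661 genes listed in cluster 2, with raised genes in blue, the others in grey and 9 red cell genes in red. Alas2 and the globins lie between folds of 7.34 and 11.8 at ranks 75 to 231, below the large folds of Fate1 and Caps2 and to the right of Eef1a1.

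Genes with the listing pattern of Hbb-bs, that is listed in clusters 1 and 2 and in no other, numbered 88, and 21 of them were raised in cluster 2. Of these 21 raised genes, the 10 of highest fold in the authors' deposited table were, in order, Alas2, Hbb-bs, Hba-a1, the pseudogene Eif3s6-ps4, Hba-a2, Tdrd7, Hbb-bt, Slc35b1, Babam2 and Fxyd3. Tdrd7, a Tudor-domain protein of RNA granules, had 8.02 in cluster 2 and 2.16 in cluster 1 of the authors' deposited table. Fxyd3, an epithelial regulator of the sodium pump, had 4.23 in cluster 2 and 2.53 in cluster 1 of the authors' deposited table. The likeness is over the listing in 11 clusters whose folds may share reference cells.

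The genes of smallest p had small folds. Leaving out ribosomal, mitochondrially encoded and predicted genes, the first 25 by p had a median fold of 1.87 and did not exceed 3.14 in the authors' deposited table; 8 of the 25 were raised. Eef1a1, which delivers aminoacyl-tRNA to the ribosome, came first with 1.76, followed by gamma actin (Actg1) with 1.80 and the ribosomal scaffold Rack1 with 2.21 in the authors' deposited table. Eef1a1 was listed in no other cluster, while Actg1 and Rack1 were also listed there in cluster 7, where the authors' deposited table gives 1.71 and 1.86. Among the 8 raised genes were the myosin light chain Myl6 with 3.14, the interferon-inducible Trim30a with 3.01, the membrane proteins Plp2 with 2.24 and Itm2b with 2.03, and galectin 3 (Lgals3) with 2.02 in the authors' deposited table. Trim30a was higher in cluster 1 of the authors' deposited table, at 4.21. Of the first 200 genes by p in cluster 2, 21 were ribosomal protein genes or their pseudogenes, beside 60 in cluster 7, 55 in cluster 3 and 0 in clusters 1, 4, 8, 10 and 11.

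The 25 raised genes of largest fold, chosen in the same way, held 1 red cell list member, Tent5c. They had folds from 16.2 to 449.9 with a median of 24.4 in the authors' deposited table, and all 25 were listed in no other cluster. Fate1, known from testis, led with 449.9, followed by the calcyphosine gene Caps2 with 121.0, the mast cell protease Mcpt9 with 92.8, the MHC class II transactivator Ciita with 92.3 and the vasoactive peptide gene Uts2 with 81.8 in the authors' deposited table. The signalling ligands Rspo3, an enhancer of Wnt signalling, and Dhh, a hedgehog protein, had 44.6 and 36.7 in the authors' deposited table. In all, 18 genes of the cluster shared 1 p-value to 10 significant digits, among them Fate1, Mcpt9, Lrrc23, B3gnt5, Lix1 and Lhx9 of these 25, with folds from 6.74 to 449.9 in the authors' deposited table. All 18 were raised.

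Markers of other cell types are read beside the 9.07% of all named genes that were listed and the 2.89% that were raised in cluster 2. Of 10 macrophage genes 2 were listed, the complement chain C1qa at 1.62 and the mannose receptor Mrc1 at 1.92 in the authors' deposited table, and 0 raised, while all 10 were raised in clusters 4 and 8. The macrophage genes Cd68, Lyz2, Adgre1 and Csf1r were not listed in cluster 2. Of 11 named genes of heme-recycling macrophages 2 were raised, the receptor tyrosine kinase Axl at 12.8 and Blvrb, which the heme list also holds, at 9.50 in the authors' deposited table. Of 10 neutrophil genes 4 were listed and 0 raised, with the protease Mmp9 at 52.9 and the alarmins S100a8 and S100a9 at 5.54 and 3.51 in the authors' deposited table. Platelet, mast cell, dendritic and endothelial lists had 1 of 11, 3 of 9, 1 of 9 and 3 of 10 members listed and 0 raised. Each of these lists had a listed share at or above that of all named genes. Of the stem and progenitor (8 named), T and NK (7), fibroblast (11), surface mucous (7), mucous neck (10), tuft (8), enteroendocrine (2) and B and plasma cell (1) lists, 0 members were listed. Of 9 general epithelial genes 1 was listed, the keratin Krt8 at 1.98 in the authors' deposited table, below the fold needed. The part of other cell types in the red cell signal was not tested.

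**Figure D3:**
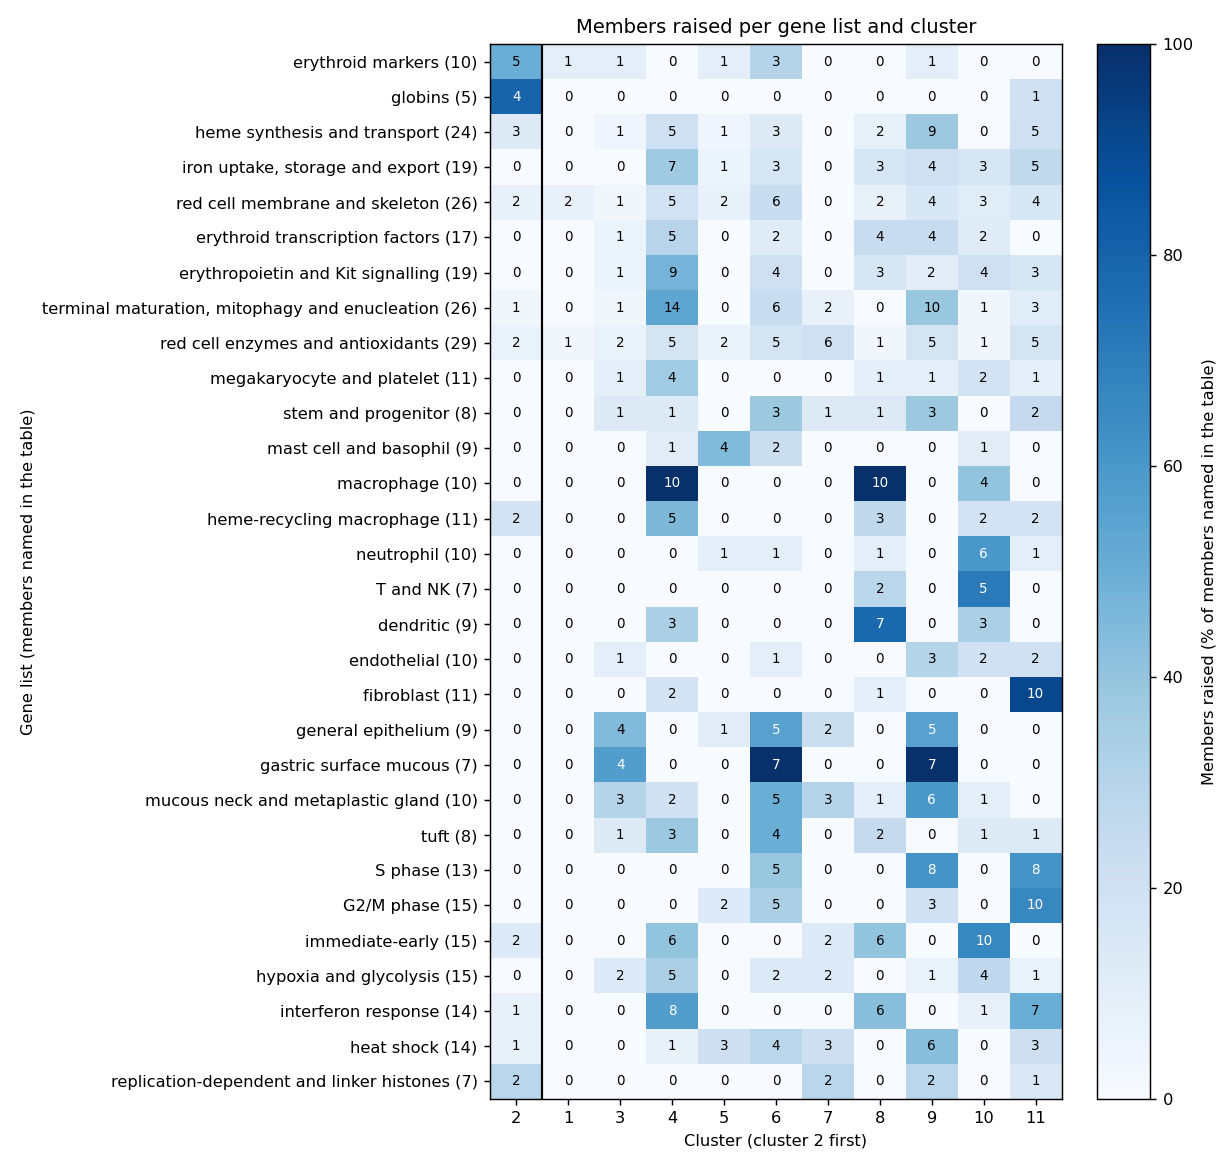
Number of raised members (digits) and their share of the members named in the table (colour, %) for each gene list with at least 5 named members (rows), in cluster 2 and the other 10 clusters (columns). In cluster 2 the globin list has 4 of 5 and the red cell marker list 5 of 10 raised, while the macrophage, fibroblast and surface mucous lists have 0. Among all named genes, 2.89% were raised there.

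Single myeloid and epithelial genes were raised in cluster 2. The genes of this paragraph were chosen after their values were seen, and their number supports nothing. The 13 myeloid genes had folds from 2.01 to 10.5 in cluster 2 of the authors' deposited table. The actin regulator Nckap1l of blood cells had 10.5, the leukocyte phosphatase Ptprc (CD45) 7.05, the complement receptor C3ar1 5.43, the Fc receptor Fcgr3 4.31 and the chemokine receptor Ccr1 4.34 in the authors' deposited table. In cluster 10, C3ar1 and Nckap1l were not listed, and Ptprc, Fcgr3 and Ccr1 had 2.15, 3.19 and 4.95 in the authors' deposited table. The authors' deposited table has C3ar1 raised in clusters 4 and 8 too, with folds of 2.56 and 4.56. Ptprc and Fcgr3 were raised in cluster 8 as well, with 2.51 and 2.27 there. Nckap1l and Fcgr3 were listed but not raised in cluster 4, with 1.69 and 1.95. Ccr1 was listed in neither cluster 4 nor cluster 8. Of 13 epithelial genes 12 were raised. The EGF receptor ligands Hbegf and Areg had 6.44 and 4.72, the endodermal transcription factors Hnf4a and Foxa1 5.66 and 5.64, the keratin Krt23 10.8 and the hemidesmosome integrins Itgb4 and Itga6 2.52 and 2.07 in cluster 2 of the authors' deposited table. Krt23 was listed in no other cluster, and Hbegf was otherwise listed in cluster 6 alone, at 1.85 in the authors' deposited table. The authors' deposited table has larger folds than those of cluster 2 for Itgb4 in clusters 6 and 9, with 2.80 and 2.81. Itga6 was higher in cluster 5, with 3.13, and Foxa1 was raised there too, with 2.76. Itgb4 was lower in clusters 3 and 5, and Itga6 in clusters 3, 6 and 9. Hnf4a was also listed in clusters 5, 6 and 9 and Areg in clusters 5 and 6, none of them raised. Whether the red cell, myeloid and epithelial genes were found in the same cells of the cluster cannot be read from this table.

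**Figure D4:**
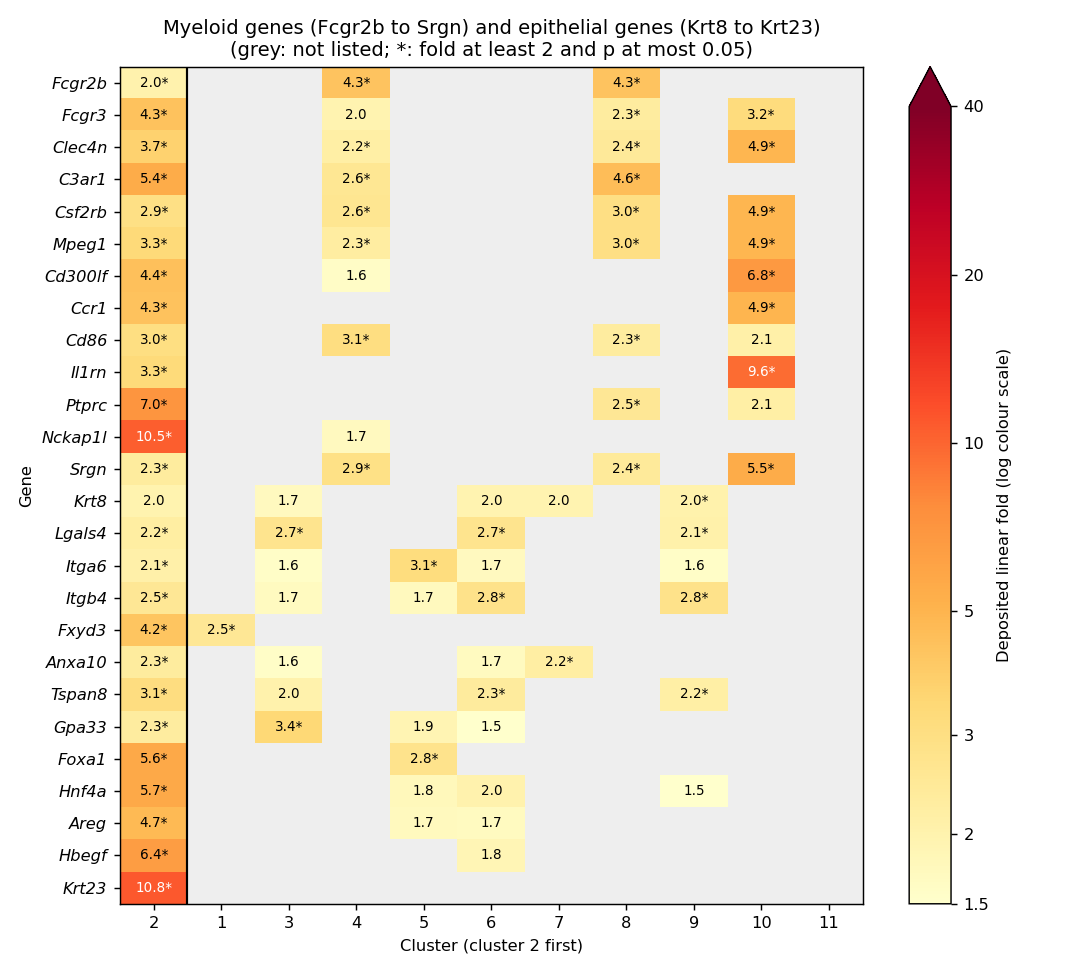
Deposited linear fold of 13 myeloid genes (upper rows) and 13 epithelial genes (lower rows) in cluster 2 and the other 10 clusters, with colour on a log scale, grey where not listed, and an asterisk where raised. Cluster 2 is coloured in every row because the genes were chosen there; the myeloid rows are otherwise filled in clusters 4, 8 and 10 and the epithelial rows mainly in clusters 3, 5, 6, 7 and 9.

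Process lists varied in their share of raised genes, beside 2.89% of all named genes. Of 7 named genes of the linker and other histone list, 4 were listed and 2 raised, or 28.6%: H1f0 at 7.67 and H3f3a at 7.05 in the authors' deposited table. In clusters 7 and 9, where 3.42% and 26.6% of all named genes were raised, 2 of the 7 were raised as well. No gene of the S phase list (13 named) or of the hypoxia and glycolysis list (15) was listed in cluster 2, and of 15 G2/M genes 1 was listed, Cdc20 at 3.20 in the authors' deposited table and not raised. Of 15 immediate-early genes 2 were raised, or 13.3%, Klf4 at 4.49 and Fos at 2.62 in the authors' deposited table. Klf4 was also listed in clusters 4, 8 and 11 and raised in none of them. Fos was raised in clusters 4 and 8 too, at 2.64 and 2.46, and listed in cluster 10 at 1.70 in the authors' deposited table. Of the 15, 6 were raised in cluster 4, 6 in cluster 8 and 10 in cluster 10. In those clusters 18.6%, 6.36% and 4.90% of all named genes were raised. Of 14 interferon response genes 4 were listed and 1 raised, Bst2 at 3.77 in the authors' deposited table. Bst2 was also raised in clusters 4 and 8, at 2.67 and 3.13, and listed in cluster 11 at 1.80 in the authors' deposited table. The mitochondrial chaperonin Hspe1 was the 1 raised gene of 14 in the heat shock list, at 3.38 in the authors' deposited table, and was listed in no other cluster. No mitochondrially encoded gene is named in the table.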

How the data were processed

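Cells of 1 cystic and 1 tubular tumor were run on inDrop with TruDrop libraries (labels' protocols). The submitters' processing notes name mm10, STAR 2.7.3a, Partek and DESeq2 3.5 without roles. Cell filters, doublet treatment, clustering and depth were not stated in the sources used here. The authors deposited 1 table with, for each of 11 clusters, gene names, linear fold changes (ratios) and p-values; these units are as per the file headers. Each p rests on single cells rather than animals, so it served as a filter and an order and is not printed.

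Listed and raised genes were counted per cluster, with 18319 named genes as denominator, in Python 3.11.15 with pandas 2.3.3. The counting was tested on simulated tables. Members and lists were chosen with earlier results of these data known. Genes named were red cell list members, up to 3 members of each other list, the first 25 by p and the 25 largest folds among raised genes. Ribosomal, mitochondrially encoded and predicted genes were left out of these ranks. Gene families and genes given as chosen later were added after values were seen. Positions are 1-based from GENCODE M21, which matched 17925 names (97.8%); promoters are from RefSeq on GRCm38.p6, and globin transcripts were aligned with Biopython 1.88. Some genes are not reported here. No test was run, since a cluster against other cells is no test and the table has 0 per-sample columns.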

Additional observations from a re-analysis of the deposited data

How the results depend on the processing

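With a fold of at least 3 or 5, the 529 raised genes of cluster 2 became 352 and 193. With a deposited p of at most 0.001 they became 227, and with no p filter 1353. A fold of at least 1.5, a p of at most 0.01 and leaving out ribosomal, mitochondrially encoded and predicted genes gave 718, 366 and 460. The red cell markers raised numbered 5 under each of the 6 alternatives tried for them. Alas2 and the globins had been named as markers, and their folds of 7.34 to 11.8 exceed each fold cut tried. Their p also passes each p cut tried, so this count could not change and is no sign of stability. The raised genes of the 8 red cell function lists numbered 12, became 19 with no p filter, and ranged from 9 to 14 under the other 5 alternatives. No paired analysis was possible because the table has no per-sample columns, and for the same reason no library could be left out. Lower genes, weakly raised genes and cell numbers are not seen.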

Other observations

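Gene families read from symbols, a choice made after the values were seen, showed which cell machinery was listed in cluster 2. Named genes with symbols of oxidative phosphorylation, assembly factors and pseudogenes included, numbered 114. Of these, 19 were listed and 10 raised (8.77%, beside 2.89% of all named genes). In cluster 2 of the authors' deposited table Ndufs7 of complex I had 9.51 and the ATP synthase subunit Atp5pb 6.05. Uqcrc1 of complex III had 3.98 and Sdhd of complex II 3.51 there. Sdhd was listed in no other cluster. The ADP/ATP carrier Slc25a4 had 7.72 in cluster 2 and 1.80 in cluster 11 of the authors' deposited table. Of 46 proteasome genes, 8 were listed and 5 raised (10.9%), led by the base ATPase Psmc2 at 11.1 and the lid subunit Psmd12 at 6.85 in the authors' deposited table. In cluster 7, 3.42% of all named genes were raised. The raised shares there were 10.9% for the proteasome genes and 17.5% for those of oxidative phosphorylation.

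Of 88 ribosomal protein genes, 21 were listed and 9 raised in cluster 2 (23.9% and 10.2%), where 9.07% of all named genes were listed and 2.89% raised. In cluster 7, where 12.1% of all named genes were listed and 3.42% raised, 64 of the 88 were listed and 37 raised (72.7% and 42.0%). Of 53 genes with Eif symbols, translation initiation factors and some of their regulators, 6 were listed and 5 raised in cluster 2 (11.3% and 9.43%). In cluster 7, 15 were listed and 9 raised (28.3% and 17.0%). Eif3l had 10.8 and Eif3f 3.96 in cluster 2 of the authors' deposited table. Of 25 histone genes, 9 were listed and 3 raised in cluster 2 (36% and 12%). These were the linker histone H1f0, which accumulates in cells that stop dividing, at 7.67, the replacement histone H3f3a at 7.05 and H2bc4 at 4.08 in the authors' deposited table. H1f0 and H3f3a were listed in no other cluster. In clusters 3, 7, 9 and 11, 3 of the 25 histone genes were raised as well (12%). There 4%, 3.42%, 26.6% and 17.0% of all named genes were raised, in that order.

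By annotation, 9.50% of the listed genes of cluster 2 that matched GENCODE were processed pseudogenes, beside 4.60% of all matched names. Among raised genes the share was 4.23%.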
